A study of Homo sapiens with 9 samples.

Results

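The comparison described here set human RPE1 cells in which a lost STK19 gene had been replaced by a transgene (STK19-KO+STK19-TY, called rescue below) against their WT counterpart, with and without UV damage. It used the 3 rescue and 3 WT nascent RNA libraries, 6 of the 9 in the series, and the 8203 transcription start site (TSS) identifiers listed in all 6, of 9805 listed in any of the 9. RPE1 is a human line labelled as retinal pigment epithelium, and both lines share the RPE1 iCas9 p53/puro-dKO background, whose name gives a loss of p53. Each line was mock-treated, or exposed to 12 J/m2 of UV-C and sampled at 3 h and 16 h. At the end of each interval the cells received 2 mM bromouridine (BrU) for 30 min, starting 2.5 h and 15.5 h after UV by the sample labels. The treatment protocol gives 3 h and 16 h as the start. The 3 STK19-KO libraries, treated alike, are given beside the others for reference. There was 1 library per line and condition. The labels do not say whether the rescue line is a single clone, which promoter drives the transgene, or how its STK19 level compares with WT, and the STK19 level was not analysed here. The study's design text names transcription recovery after UV-C as its question, and the comparison asks how far the transgene returned that response to the WT pattern.

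BrU is taken up into RNA while it is being made, so that isolating BrU-containing RNA shows where RNA polymerase II was transcribing during the pulse. UV-C leaves lesions in the template strand that stall elongating polymerases, and new RNA is then seen mostly near the start of long genes until the lesions are cleared by transcription-coupled repair. STK19 is a factor of that repair pathway. A return of signal to the far parts of long genes is therefore a common readout of recovery.

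The deposited values are coverage in 200-bp bins over 100 kb on each side of a TSS, scaled by the authors to a like total per library. The highest summed signal of the 6 libraries was 1.13 times the lowest, and they listed 8617 to 9520 identifiers. The smallest step between values showed unequal depth. The rescue 3 h library was the shallowest, and the others were 1.79 (rescue mock), 1.80 (WT mock), 3.21 (WT 3 h), 4.41 (rescue 16 h) and 6.54 (WT 16 h) times as deep. Read totals are not known, so no counting intervals were computed. The identifiers could not be paired with gene names, so no cell type marker or named pathway was looked up and no sequence is shown. Among the identifiers called below, 17 pairs of windows in opposite orientation held matching signal (r of at least 0.82), found without coordinates. Where such windows overlap, the signal was not separated by strand.

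The shift of signal towards the TSS at 3 h, taken as a share within each gene, was smaller in rescue than in WT. At 16 h the signal of rescue still leaned towards the TSS, while WT lay close to its mock value by the first 25 kb, though less so by other measures below. This was read from 276 long-span genes, identifiers with signal over the whole of the first 100 kb, as the near share, the percentage of the signal from 0 to 100 kb that lay in the first 25 kb. The WT medians were 30.8% (mock), 51.8% (3 h) and 31.9% (16 h). In rescue it was 27.7%, 41.0% and 34.2%. In STK19-KO it was 28.5%, 39.1% and 41.7%. The rescue medians thus lay below WT in mock and at 3 h and above WT at 16 h, and between WT and STK19-KO at both times after UV. Over single genes the quartiles of the lines overlapped in each condition, with 29.0% to 69.2% in WT and 25.4% to 55.4% in rescue at 3 h.

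Taken gene by gene, the near share rose at 3 h by a median of 18.8 points in WT, 11.2 points in rescue and 8.47 points in STK19-KO. It rose above mock in 217 of the 276 genes in WT and in 220 in rescue, so about as many genes moved in both lines and the size of the move differed. The rise was larger in rescue than in WT in 86 genes (31.2%) and smaller in 190, and the median difference, rescue minus WT, was -4.07 points (quartiles -11.9 and 1.23). A difference of over 10 points was found in 87 genes towards a smaller rise in rescue and in 11 towards a larger one. Across genes the changes of both lines had a Pearson r of 0.85 at 3 h, which describes genes within these libraries and not replicates.

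At 16 h the near share stood a median of 0.197 points above mock in WT, 6.10 points above in rescue and 11.7 points above in STK19-KO. It was above mock in 141 of 276 genes in WT and in 203 in rescue. The change was larger in rescue than in WT in 201 genes (72.8%), by a median of 5.21 points over all genes (quartiles -0.695 and 11.8). For 81 genes this difference of the changes passed 10 points towards a higher value in rescue, and for 9 it did so the other way. In 81 genes the near share was below mock in WT and above mock in rescue, and in 19 the reverse held. By change from mock, genes with a lower value in rescue than in WT at 3 h and a higher one at 16 h were the most frequent class, 135 of 276. In a further 66 the change in rescue was above that in WT at both times. It was below at both times in 55, and above at 3 h and below at 16 h in 20. From 3 h to 16 h the near share changed by a median of -19.6 points in WT, with a fall in 233 of the 276 genes, and by -6.33 points in rescue, with a fall in 189. The same step in STK19-KO was 0.778 points, with a fall in 128 genes. Compared directly within a condition, rescue minus WT had a median of -2.70 points in mock, -7.23 at 3 h and 2.34 at 16 h. Rescue was below WT in 184, 207 and 90 of the 276 genes. The differences in change from mock thus include the lower mock value of rescue, which rests on 1 library per line.

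**Figure D1:**
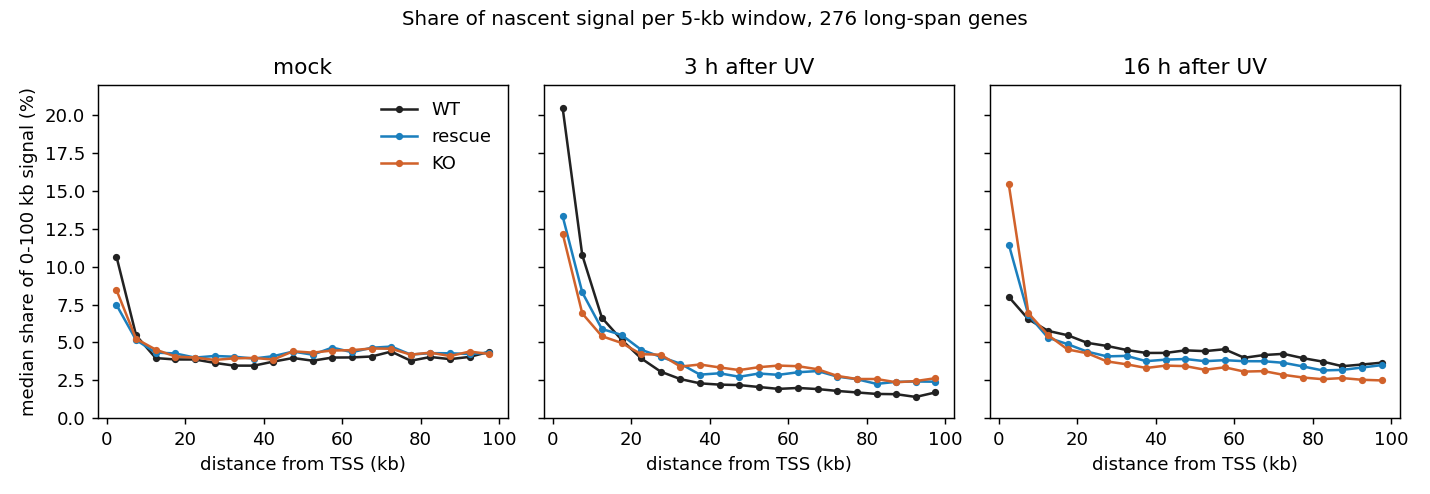
Median share of the 0 to 100 kb signal (y axis, percent) in each 5-kb window against distance from the TSS (x axis, kb) for 276 long-span genes, in mock, 3 h and 16 h libraries, with 1 line per cell line and 1 library per curve. The first window held 20.5% in WT, against 13.3% in rescue at 3 h, and 8.01% in WT, against 11.5% in rescue at 16 h, and the rescue curve at 16 h ran between WT and STK19-KO over most of the span.

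The windows of 5 kb showed where along the genes the lines parted. In mock the first window held 10.7% of the signal in WT, against 7.48% in rescue, and rescue was above WT in 17 of the 20 windows. At 3 h the first window held 20.5% in WT, against 13.3% in rescue. Rescue was again above WT in 17 of 20 windows, and first from 15 kb on. At 16 h this was turned, with 8.01% in WT, against 11.5% in rescue in the first window, and rescue was above WT in 2 of 20 windows. The first window in WT at 16 h was thus below its own mock, whereas that of rescue was above its own mock. In STK19-KO the first window held 8.46%, 12.2% and 15.4% in mock, at 3 h and at 16 h.

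The distance within which 50% of a gene's first 100 kb of signal lay gave the same order on a length scale. Its medians in WT were 48.5 kb (mock), 23.4 kb (3 h) and 43.0 kb (16 h). In rescue it was 49.7 kb, 34.3 kb and 41.1 kb, and in STK19-KO 49.8 kb, 35.4 kb and 33.9 kb. By this measure rescue lay near WT in mock, further out than WT at 3 h and slightly further in at 16 h. From mock to 16 h the median changed by -5.5 kb in WT, -8.6 kb in rescue and -15.9 kb in STK19-KO.

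The 3 h contrast of the lines was carried more by genes with a low level. Among the 138 long-span genes with the higher signal over 100 kb, the near share rose at 3 h by a median of 6.90 points in WT, against 6.76 points in rescue, with a median difference of -1.40 points. Among the 138 with the lower signal it rose by 28.8 and 19.3 points, with a median difference of -7.75 points. At 16 h the median difference was 4.05 points in the upper and 7.21 points in the lower group. Depth differed between the libraries as given above, and its part in the contrast was not tested. The 276 genes may not all be separate loci. Without coordinates, windows were joined where their signal matched over at least 80 kb (r of at least 0.8). This joined 13 pairs and left 263 loci, an estimate that can miss shorter overlaps or join unrelated windows.

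The test of these responses made no call. In limma with condition as a block and a line-by-UV term, 0 of 276 genes (0%) passed an adjusted p of 0.05 for another UV response of near over far signal in rescue than in WT, and 0 had a raw p below 0.05. The log2 differences had a median of 0.06. This contrast averages 3 h and 16 h, at which the medians above had opposite signs, and it rests on 1 residual degree of freedom. At a single time there is 1 library per arm, so the differences of -4.07 and 5.21 points have no replicate check.

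The authors' own averages over gene length classes, with 308 genes of at least 100 kb, 787 of at least 50 kb and 1473 of at least 25 kb, showed the same order of the 3 lines. In the class of at least 100 kb, the near share rose at 3 h by 31.6 points in WT, 26.5 in rescue and 18.2 in STK19-KO. At 16 h it had changed by -1.90 points in WT, 10.1 in rescue and 15.3 in STK19-KO. The 50% distance in that class was 34.8 kb, 7.60 kb and 33.4 kb in WT (mock, 3 h, 16 h), 38.0 kb, 12.2 kb and 25.4 kb in rescue, and 35.6 kb, 15.6 kb and 18.0 kb in STK19-KO. In the class of at least 50 kb the near share rose at 3 h by 25.8 points in WT, against 18.3 in rescue, and at 16 h changed by -1.22 and 5.93 points. In the class of at least 25 kb the same values were 15.4 and 11.1 points, and -1.03 and 3.69 points. With these 25 kb as the near window, WT at 16 h was thus just under its mock and rescue above its mock in each length class. With a near window of 50 kb WT was above its mock too, by 4.78, 3.79 and 3.06 points, against 10.55, 5.78 and 5.19 points in rescue. These averages and the long-span genes come from the same cultures and are not independent evidence.

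Beside the shift along genes, the start-proximal signal changed differently in both lines. The start ratio, the log2 ratio of the mean signal in the first 1 kb to that from 1 to 5 kb with 1 added to each, was followed in 3250 identifiers with a mean signal of at least 1 in both regions. Promoter-proximal pausing and the firing of new polymerases both contribute to signal so close to the TSS. The median start ratio of WT was 0.30 (mock), -0.10 (3 h) and 0.01 (16 h). Rescue had 0.15, 0.08 and -0.07, and STK19-KO had 0.04, 0.12 and 0.43. After UV the ratio thus fell from mock in WT and, by less, in rescue, while the STK19-KO medians rose. The quartiles of the lines overlapped widely, with -0.36 to 0.998 in WT mock and -0.47 to 0.76 in rescue mock.

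**Figure D2:**
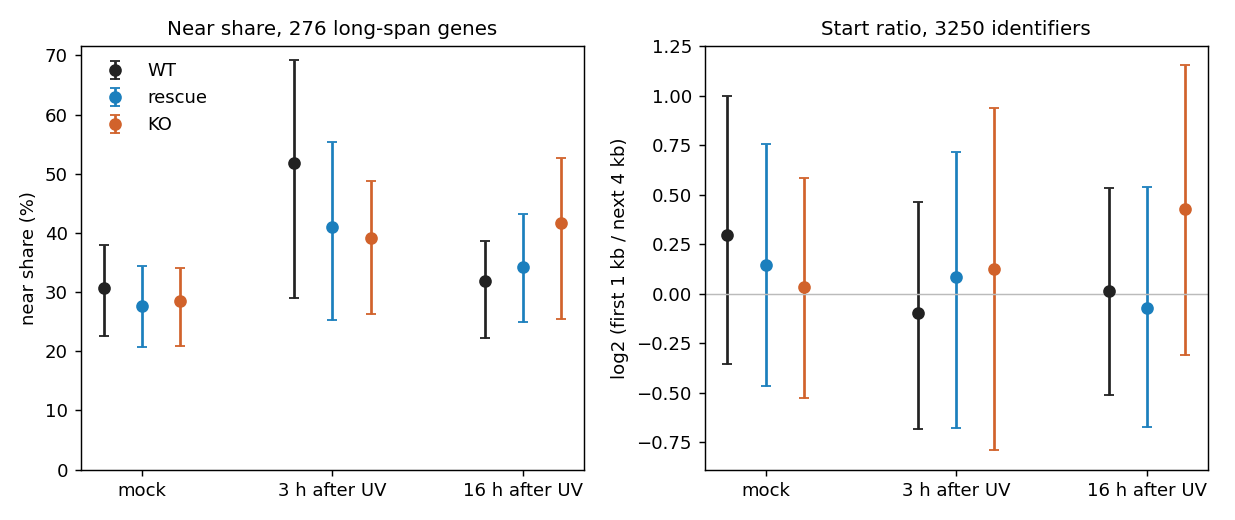
Median near share of 276 long-span genes (left, percent) and median start ratio of 3250 identifiers (right, log2) in each of the 9 libraries, with bars from the lower to the upper quartile over genes. Rescue lay between WT and STK19-KO in near share after UV, with 41.0% at 3 h and 34.2% at 16 h, and its start ratio at 16 h (-0.07) was near WT (0.01) and under STK19-KO (0.43).

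Identifier by identifier, the start ratio fell at 3 h in 2487 of 3250 in WT (76.5%) and in 1824 in rescue (56.1%), with median changes of -0.46 and -0.10. The median difference, rescue minus WT, was 0.34 (quartiles -0.26 and 0.96), and the change was above that of WT in 65.8% of identifiers. It was over 2-fold above in 768 identifiers (23.6%) and over 2-fold below in 296 (9.11%). At 16 h the ratio fell in 69.2% of identifiers in WT and in 62.98% in rescue, with median changes of -0.32 and -0.22. The median difference was 0.11 (quartiles -0.41 and 0.60), and the change in rescue was above that of WT in 56.1%. It was over 2-fold above in 424 (13%) and over 2-fold below in 274 (8.43%). The start ratios differed before UV too, with rescue below WT in mock in 61.4% of identifiers by a median of -0.20. At 3 h rescue was below WT in 40.5%, and at 16 h in 58.1%.

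A constant difference of the start ratio between the lines was called by limma in 0 of 3250 identifiers (0%), and 181 had a raw p below 0.05. Another UV response in rescue than in WT was called in 8 of 3250 (0.246%), all towards a higher ratio in rescue. A raw p below 0.05 was found for 250, and the log2 differences of all identifiers had a median of 0.23. The largest were uc033ecr.2, with a log2 difference of 3.57 (SE 0.83, limma adjusted p = 0.0269), and uc003tir.4, with 3.31 (SE 0.80, limma adjusted p = 0.0296). The contrast has 1 residual degree of freedom and rests on 1 mock library per line. In uc033ecr.2 the start ratio was -0.05, -1.24 and -1.07 in WT (mock, 3 h, 16 h) and -2.47, 0.46 and -0.47 in rescue. In uc003tir.4 it was 1.67, -0.79 and -0.38 in WT, against -1.81, -1.37 and -0.16 in rescue. In all 8 the lowest of the 6 ratios was that of rescue mock. The first 1 kb of rescue mock was at 0 in both named identifiers, and in 5 of the 8 it held no more than 2 steps of that library's values. No identifier was called with a pseudocount 4 times higher, where 178 had a raw p below 0.05, or with all 9 libraries in the fit, with 77.

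How far the transgene returned the UV change to that of WT was expressed as the position of the rescue value between STK19-KO (0%) and WT (100%). For the near share this was 26.5% at 3 h and 48.8% at 16 h from the medians over the long-span genes. In the authors' averages it was 62.1%, 37.6% and 36.3% at 3 h and 30.3%, 37.7% and 38.4% at 16 h, for the classes of at least 100, 50 and 25 kb. For the start ratio it was 37.1% at 3 h and 86.2% at 16 h over the identifiers, and 50.03% to 53.4% at 3 h and 74.4% to 78.0% at 16 h in the averages, whose ratios were taken with nothing added. For the 50% distance in the averages it ran from 28.6% to 80.6% at 3 h and from 30.9% to 54.0% at 16 h. The position moved with the genes and windows taken. For the near share at 3 h it was 91.4% in the 138 long-span genes with the higher level and 45.0% in the 138 with the lower level, and at 16 h it was 37.0% and 48.3%. The 91.4% rests on a narrow span, with median changes of 6.90 points in WT, 6.76 in rescue and 5.24 in STK19-KO. Gene by gene, the change in rescue was below that in WT in 86 of these 138, with a median difference of -1.40 points. The 50% distance of the long-span genes placed rescue at 9.35% at 3 h and 70.2% at 16 h. With the first 50 kb as the near window, the averages gave 70.3%, 16.2% and 1.36% at 3 h. At 16 h that window gave 41.1% in the class of at least 100 kb, while in the classes of at least 50 and 25 kb rescue was not between the lines, with changes of 5.78 and 5.19 points against 5.71 and 4.24 in STK19-KO and 3.79 and 3.06 in WT. For the start ratio, wider windows gave 41.2% at 3 h and 54.0% at 16 h (first 2 kb over the next 8 kb), and 32.9% and 57.2% (first 1 kb over 1 to 25 kb). With these windows the median difference between rescue and WT was larger at 16 h, at 0.46 and 0.51, than at 3 h, at 0.23 and 0.27, the reverse of the order given above. Positions are ratios of differences between single libraries and carry no error.

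**Figure D3:**
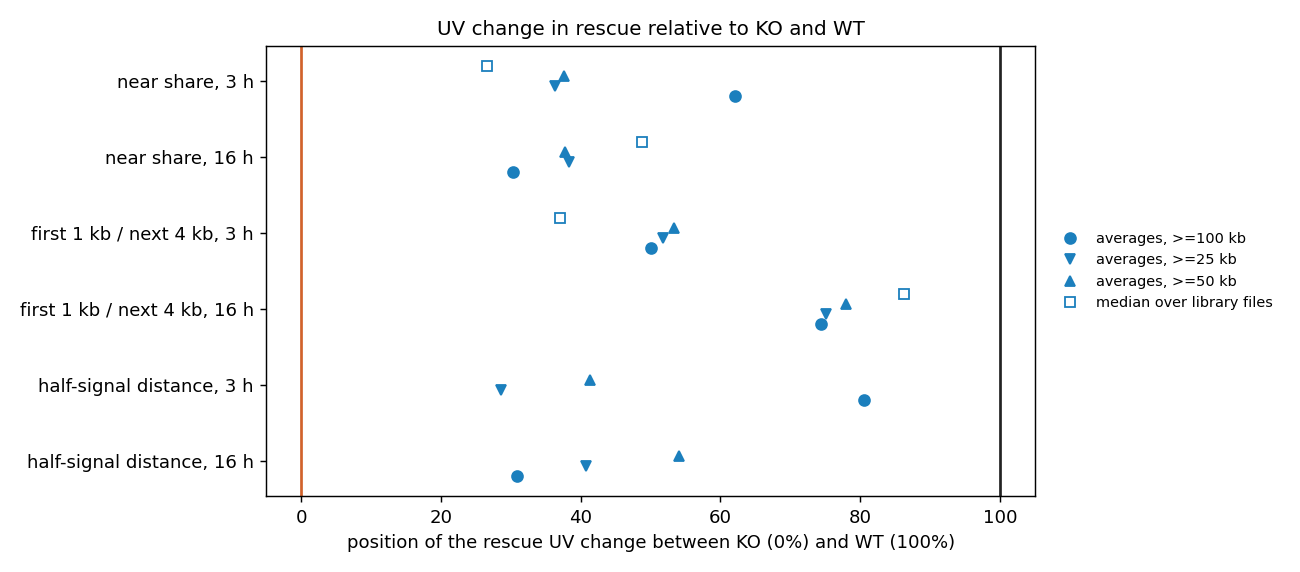
Position of the UV change in rescue (x axis, percent) on a scale on which the change in STK19-KO is 0% and that in WT is 100%, for near share, start ratio and 50% distance (labelled half-signal distance) at 3 h and 16 h. Open squares are medians over the library files and filled symbols the authors' averages by gene length, and the start ratio at 16 h sits at 74.4% to 86.2%.

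Transcription levels also differed between the lines. They were taken over mock and UV libraries together, and so are not separated from the UV response. The level was taken as the mean bin value over the first 25 kb, and 3608 identifiers reached a mean level of 1. In limma on log2(level + 0.1) with condition as a block, 454 of 3608 (12.6%) differed between rescue and WT at an adjusted p under 0.05, 154 higher (4.27%) and 300 lower (8.31%) in rescue. A raw p below 0.05 was found for 938. The called differences had a median size of 1.12 on the log2 scale, from 0.80 to 4.90, and 27 passed 4-fold, 15 higher and 12 lower in rescue. Joined by matching signal as above, they came from an estimated 421 loci. Rescue was on the same side of WT in all 3 conditions for 405 of the 454 (89.2%), a feature that the test favours, against 42.1% of all identifiers tested. All 3 rescue libraries lay above all 3 WT libraries in 73 of the 454 calls and below in 113. Among all 3608 tested this held in 156 (4.32%) and 188 (5.21%), and the test favours this feature too.

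In single conditions rescue was over 2-fold above WT in 185 identifiers in mock (5.13%), 186 at 3 h (5.16%) and 255 at 16 h (7.07%), and over 2-fold below in 371 (10.3%), 706 (19.6%) and 160 (4.43%). These counts include shifts of whole libraries. With the differences centred on their median in each condition, 266, 386 and 179 were over 2-fold above and 266, 320 and 224 over 2-fold below. The balance was then even in mock and turned at 3 h and 16 h.

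The count and its balance depended on the level filter, the condition block, single pairs and scaling. No identifier was called without the level filter, where 1081 of 8203 had a raw p below 0.05 in limma, and 7 were called without the condition block. At a mean level of at least 5 there were 199 calls, and 139 when the level was taken from 0 to 10 kb. Leaving out pairs gave 39 calls without the mock pair, 93 without the 3 h pair and 1152 without the 16 h pair, of which 282 were higher and 870 lower. The median log2 difference of all identifiers was -0.16 in mock, -0.39 at 3 h and 0.14 at 16 h. With libraries centred on their medians, 370 were called, 256 higher and 114 lower, so the larger direction turned. With trimmed-mean scaling 324 were called, 198 higher and 126 lower. There were 259 identifiers called both as deposited and after centring, 145 higher and 114 lower in rescue. The lines were compared at 1 library per condition, so a constant difference between the 2 cell populations is measured, not the spread between cultures.

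For the called identifiers the values of STK19-KO, whose deletion the rescue line carries, are given side by side. Both comparisons use the same WT libraries and so lean the same way, and no test was made of their likeness. In the set called higher, the median log2 difference from WT was 1.18 in rescue and 1.17 in STK19-KO, and in the set called lower it was -1.08 and -0.91. Over all identifiers tested the medians were -0.14 and -0.09. The values of rescue lay over 2-fold from those of STK19-KO in 2 of 153 and 6 of 300 called identifiers, and in 11 of all 3607.

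The largest fall by the naming rule was at uc002inx.4, whose level was 14.2, 21.6 and 5.61 in WT (mock, 3 h, 16 h) and 0.370, 0.605 and 0.239 in rescue. In STK19-KO it was 0.0569, 0.429 and 0.0906. Each WT library was thus far above every rescue library, with a log2 difference of -4.65 (SE 0.34, limma adjusted p = 3.71e-38). The limma adjusted p was 2.59e-05 after centring, 0.00125 without the condition block and 0.289 without a level filter, so its size depends on the fit. This identifier passed the level filter through the WT libraries, with means of 13.8 in WT and 0.405 in rescue. Its p-value is therefore not separate from that selection. The signal of WT at this identifier reached from the 25 kb before the TSS, with a mean of 10.7, over the first 25 kb (13.8) and the next 25 kb (6.36), and the same stretches held 0.681, 0.405 and 0.702 in rescue. The difference from WT was thus not limited to the start, and STK19-KO was low in the same stretches, at 0.114, 0.192 and 0.380.

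The second was uc002uph.4, 1 of the 276 long-span genes. Its level was 3.02, 8.34 and 19.2 in WT, against 0.685, 1.503 and 4.15 in rescue, with 0.962, 1.68 and 6.63 in STK19-KO. The level rose from mock to 16 h in all 3 lines, at a log2 difference between rescue and WT of -2.19 (SE 0.31, limma adjusted p = 9.3e-10). Its near share was 42.0%, 78.2% and 43.8% in WT, against 40.6%, 46.1% and 65.3% in rescue, with 46.2%, 43.0% and 66.2% in STK19-KO. Its near share rose in WT at 3 h and was back near mock at 16 h, whereas in rescue and STK19-KO the high value came at 16 h. With the condition block left out, it was no longer called (limma adjusted p = 0.407).

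Of the identifiers higher in rescue, uc001iuj.2 had a level of 0.498, 1.08 and 1.05 in WT, against 7.02, 9.02 and 3.60 in rescue. In STK19-KO it was 8.54, 10.2 and 4.63, so rescue and STK19-KO lay together. The log2 difference between rescue and WT was 2.74 (SE 0.34, limma adjusted p = 8.02e-13). This identifier passed the level filter through the rescue libraries, with a mean of 0.876 in WT. The signal lay near the TSS, with a mean of 23.0 in the first 5 kb in rescue and 3.45 in WT.

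The largest rise by the rule, uc032vse.2, was of another kind, since rescue was high and STK19-KO was not. Its level was 0.401, 0.620 and 0.113 in WT, against 5.64, 11.8 and 3.29 in rescue. In STK19-KO it was 1.41, 0.742 and 0.7999. The lowest rescue library was above the highest WT and STK19-KO libraries, and the log2 difference from WT was 3.85 (SE 0.38, limma adjusted p = 1.16e-20). This identifier passed the level filter through the rescue libraries, with means of 6.93 in rescue and 0.378 in WT. Its p-value is therefore not separate from that selection.

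**Figure D4:**
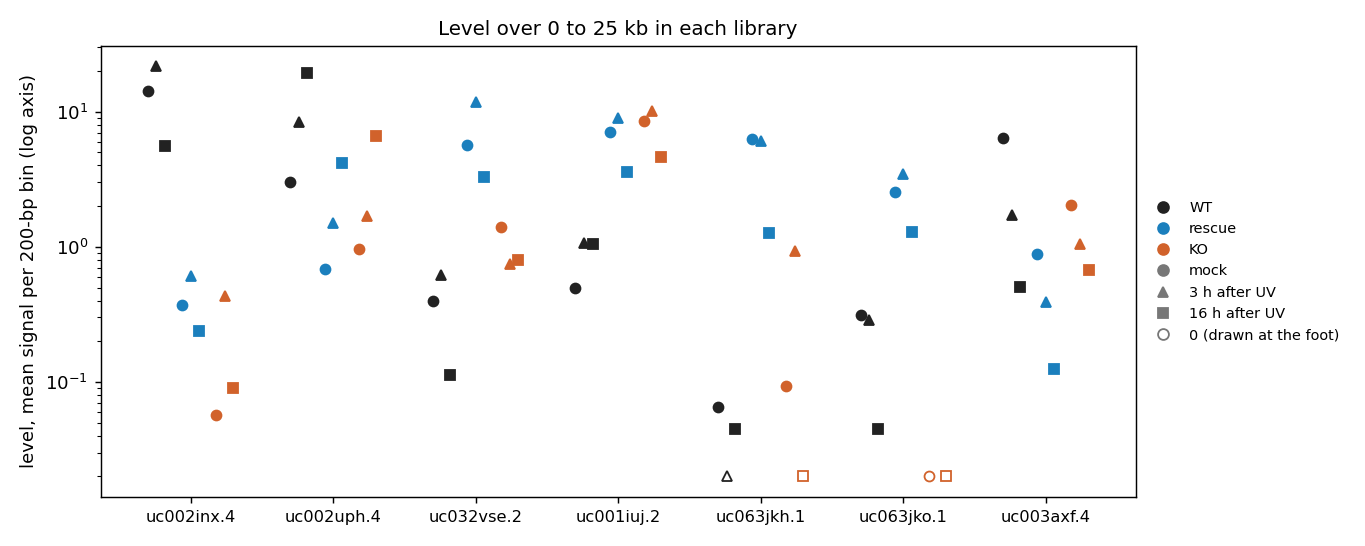
Level over the first 25 kb (y axis, mean signal per 200-bp bin, log axis) of the 4 identifiers named by rule and 3 chosen after their values were seen, in each library, with colour for the line and symbol for the condition. Rescue and STK19-KO sit together at uc002uph.4 and uc001iuj.2, whereas at uc032vse.2, uc063jkh.1 and uc063jko.1 rescue sits above both other lines.

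A search over all 3608 identifiers, made after the values were seen, found 3 (0.0831%) at which rescue was over 2-fold above both WT and STK19-KO in each condition in which they were listed. The smallest of these margins was 1.91 on the log2 scale, and that of the next identifier was 0.50. They were uc032vse.2, uc063jkh.1 and uc063jko.1. All 3 passed the level filter through the rescue libraries, with WT means of 0.378, 0.0366 and 0.215. The search thus admitted such identifiers by their rescue signal. At uc063jkh.1 the level was 0.0650, 0 and 0.0448 in WT, 6.30, 6.03 and 1.27 in rescue and 0.0931, 0.937 and 0 in STK19-KO. At uc063jko.1 it was 0.314, 0.286 and 0.0448 in WT, against 2.56, 3.44 and 1.28 in rescue. It was listed at 0 in STK19-KO in mock and at 16 h, and the 3 h library of STK19-KO did not list it.

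At these identifiers the rescue signal was spread over the whole window. At uc032vse.2 it covered 93.8%, 93.2% and 91.7% of all bins from 100 kb before to 100 kb after the TSS in mock, at 3 h and at 16 h, against 3.70%, 5.79% and 5.19% in WT and 9.89%, 2.90% and 3.60% in STK19-KO. The mean signal over these 200 kb was 5.71, 9.46 and 2.25 in rescue, 0.183, 0.194 and 0.0503 in WT and 0.313, 0.400 and 0.187 in STK19-KO. In stretches of 25 kb, averaged over the 3 conditions, the rescue signal stayed between 3.62 and 8.45, with no peak at the TSS. The highest stretch of WT was 0.653. At uc063jkh.1 the covered share was 92.6%, 89.6% and 86.5% in rescue, with 25-kb stretches between 3.33 and 7.06. The windows of uc032vse.2 and uc063jkh.1 overlap by 139.4 kb in opposite orientation (r = 0.86 over 697 bins), so they show 1 locus. At uc063jko.1 the covered share was 81.4%, 41.5% and 44.1%, with 25-kb stretches between 0.969 and 2.43. Whether it adjoins the other locus is not known, since the files give no coordinates.

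**Figure D5:**
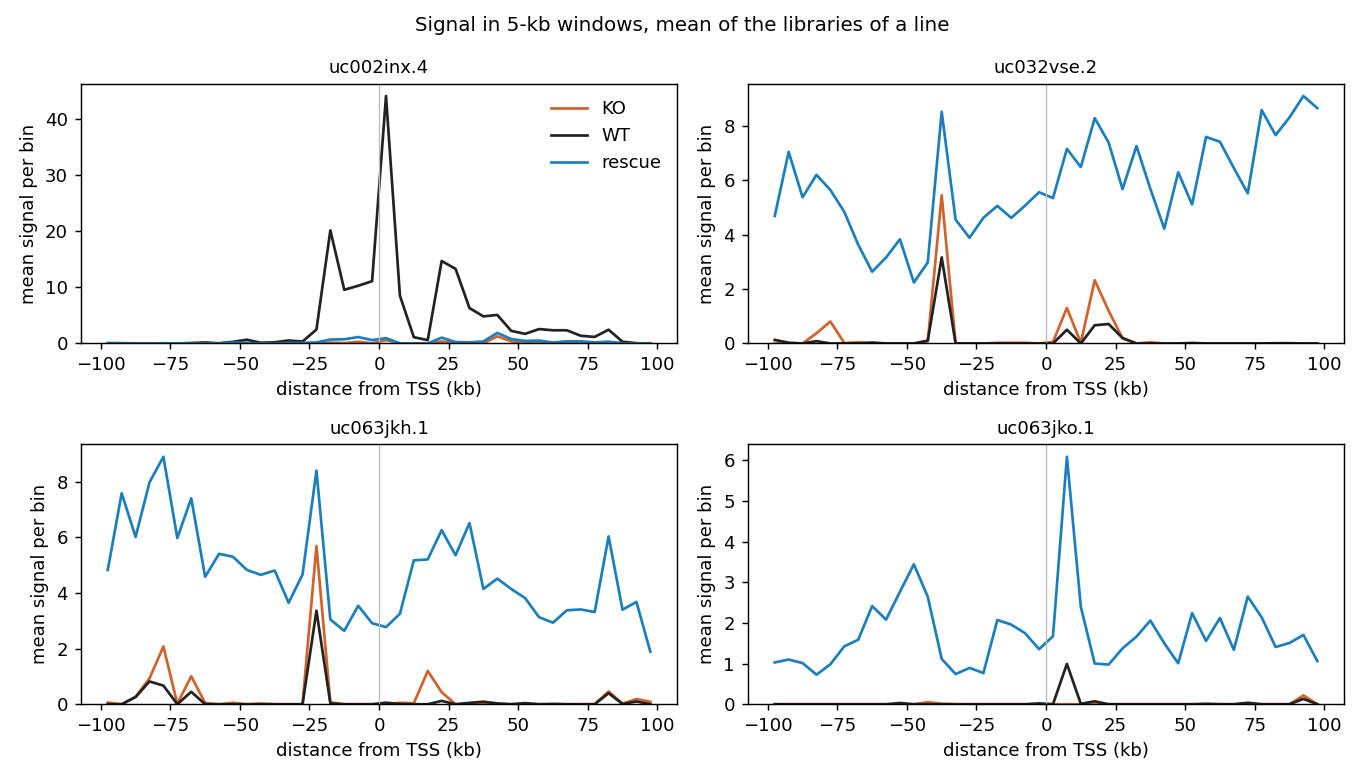
Mean signal per bin in 5-kb windows (y axis) against distance from the TSS (x axis, kb), averaged over the libraries of each line (3, or 2 for STK19-KO at uc063jko.1). At uc002inx.4 the signal of rescue and STK19-KO is far under that of WT in the first 5 kb, at 0.954 and 0.596 against 44.1, and at the other 3 identifiers the rescue signal runs on across the 200 kb, between 3.62 and 8.45 in 25-kb stretches at uc032vse.2.

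In the opposite direction 1 identifier (0.0277% of 3607), uc003axf.4, was over 2-fold below both other lines in all conditions. Its level was 6.42, 1.71 and 0.505 in WT, 0.892, 0.390 and 0.124 in rescue and 2.04, 1.05 and 0.679 in STK19-KO. It passed the level filter through the WT libraries, with means of 2.88 in WT and 0.469 in rescue. The levels of the lines overlapped between conditions, and a stretch from 75 to 50 kb before the TSS held far more signal in all 3 lines, at means of 133.4, 119.2 and 105.5 in WT, rescue and STK19-KO.

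The UV change of the level was last compared for identifiers that had been chosen on the STK19-KO libraries alone, among those that had passed the level filter on the WT and rescue libraries. Libraries were centred on their medians. The level rose over 2-fold at 3 h in STK19-KO in 203 of 3607 identifiers, and for these the median log2 change was 0.79 in WT, against 1.31 in rescue. Rescue was above WT in 159 of the 203 (78.3%), against 56.5% of all identifiers. For the 26 that rose over 4-fold in STK19-KO the medians were 1.38 and 2.76, and rescue was above WT in 24. At 16 h, 375 identifiers rose over 2-fold in STK19-KO, with medians of 0.13 in WT, against 0.66 in rescue, and rescue was above WT in 283 (75.5%), against 56.8% of all. A rise over 2-fold was seen in 62 of the 375 in WT and in 119 in rescue, whereas over all 3607 identifiers it was seen in 365 in WT (10.1%) and in 266 in rescue (7.37%). At 3 h the shares of all identifiers with such a rise were 4.99% in WT, against 7.26% in rescue. For the 40 that rose over 4-fold the medians were 0.39 and 1.53.

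By their medians, the identifiers that fell in STK19-KO separated the lines less. Of the 336 that fell over 2-fold at 3 h, the median change was -1.18 in WT, against -1.16 in rescue, and 196 and 199 of them fell over 2-fold, against 10.7% and 9.59% of all identifiers. For the 60 that fell over 4-fold at 3 h, the medians were -2.16 and -1.89, with rescue above WT in 68.3%. Of the 543 that fell over 2-fold at 16 h, the medians were -0.99 and -1.14, and 270 and 315 fell over 2-fold, against 17% and 11.4% of all. For the 147 that fell over 4-fold at 16 h the medians were -1.58 and -1.97. Rescue was above WT in 43.6% of the 543 and in 34.7% of the 147, against 56.8% of all identifiers. The rises seen in STK19-KO were thus larger in rescue than in WT at both times, while the falls over 2-fold had like medians at 3 h and larger ones in rescue at 16 h. These are medians over identifiers in single libraries and were not tested.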

How the data were processed

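Nascent RNA of BrU-labelled RPE1 cells was sequenced as 151 bp paired-end reads, per the labels' protocols. HOMER 4.8.2 and STAR 2.7.7a appear in the submitters' processing notes, with R 4.0.5, FastQC 0.11.9, Trim Galore 0.6.5 and the builds hg38 and GRCh38, roles unstated. The deposited signal is coverage in 200-bp bins around each TSS, per the file headers, with 100% of values on whole steps (to within 0.02 of a step). It was scaled by the authors. No spike-in is named in the sources used here, so levels are relative within a library. Groups came from sample titles. None of 9805 identifiers matched the reference table.

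Members, gene lists and rules were chosen with earlier results of these data known. Long-span genes had all 20 windows of 5 kb at 0.5 or more on the mean of the 6 libraries, none at 6 times the median window or more, and a mean 5 to 1 kb before the TSS below 0.5 times that median. Gene ends are not known, so windows can hold neighbours. Tests used limma 3.58.1 under R 4.3.3 (empirical Bayes with a trend, Benjamini-Hochberg adjustment) on log2 values. Constant differences had 2 residual degrees of freedom. The prior was infinite in the main fits of the level and of the UV responses, so their p-values rest on a spread shared by all identifiers. It had 7.17 degrees of freedom for the constant start ratio. For the level it had 8.49 after centring and 7.50 with trimmed-mean scaling. Adding 0.1 understates folds of low levels. Near and far sums had 128.3 added. The fits were also run on simulated data, where neither UV-response fit recovered changes of 2-fold or 4-fold. An absence of calls in those fits therefore does not show like responses. The fit of a constant start ratio recovered no 2-fold change and only part of the 4-fold ones. Its absence of calls does not show like start ratios either. Named identifiers were the 2 highest and 2 lowest calls in the upper 60% by level with rescue on 1 side of WT throughout, or, for the start ratio, the 2 largest. Alternatives changed filter, scaling, pseudocount, window, block and libraries. Tables were made with Python 3.11.15.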

Additional observations from a re-analysis of the deposited data

Results flagged for a closer look

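The near share at 16 h moved in opposite directions from mock in WT and rescue in each of the authors' gene length classes, with the first 25 kb as the near window. It changed by -1.90 points in WT and 10.1 in rescue for genes of at least 100 kb, by -1.22 and 5.93 points for at least 50 kb, and by -1.03 and 3.69 points for at least 25 kb. With a near window of 50 kb both lines were above mock, by 4.78, 3.79 and 3.06 points in WT and 10.55, 5.78 and 5.19 points in rescue. With 1 library per line and condition this difference was not tested.

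The UV response of the start ratio passed limma's line-by-UV test at uc033ecr.2 (log2 difference 3.57) and uc003tir.4 (3.31). Both calls rest on 1 residual degree of freedom and on a first 1 kb listed at 0 in rescue mock. Both were lost with a pseudocount 4 times higher (limma adjusted p = 0.837) and with all 9 libraries in the fit (limma adjusted p = 0.999).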

How the results depend on the processing

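Level calls (454) were 0 without a level filter (1081 at an unadjusted p under 0.05), 199 at a mean level of at least 5, 139 over 0 to 10 kb, 7 without the condition block, and 39 to 1152 when 1 condition was left out. They stayed within 1.5 times the main count under centring, trimmed-mean scaling, a pseudocount of 1, a window of 1 to 25 kb and all 9 libraries. All 4 identifiers named for level kept their direction under every alternative run and lost the call without a level filter (limma adjusted p = 0.289), and uc002uph.4 also without the block. After centring, their limma adjusted p ran from 2.59e-05 to 0.00154. The 8 start-ratio calls were 0 under both alternatives. The 0 calls of a constant start ratio and of near over far signal stayed 0.

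The median near-share difference (rescue minus WT, -4.07 points at 3 h and 5.21 at 16 h) kept its sign throughout. It was -4.78 and 6.29 with a near window of 10 kb, -2.64 and 3.43 with 50 kb, -3.25 and 4.95 from pooled signal, -1.40 and 4.05 in the upper 138 genes by level, and -3.98 and 4.28 with genes chosen on all 9 libraries. In the authors' averages it was -5.09 and 12.0 (100 kb), -7.49 and 7.15 (50 kb), and -4.32 and 4.72 (25 kb). The median start-ratio difference (0.34 at 3 h and 0.11 at 16 h) was 0.27 and 0.092 with a pseudocount 4 times higher, 0.36 and 0.11 at a mean of at least 5, 0.23 and 0.46 for the first 2 kb over the next 8 kb, 0.27 and 0.51 against 1 to 25 kb, and 0.39 and 0.044 in long-span genes. In the averages it was 0.37 and 0.26 (100 kb), 0.36 and 0.22 (50 kb), and 0.37 and 0.24 (25 kb). The causes were not tested.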
